A study of Mus musculus with 6 samples.

Results

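Maoa, Maob and Ddc encode 3 enzymes of dopamine metabolism, and their rows were described here in single-nucleus RNA sequencing of mouse striatum. They were chosen by name, as 3 of the 24841 genes in the deposited table, with earlier results of these data known. The table holds 48834 nuclei from 6 libraries of dissected striatum that had been flash frozen and kept in embedding compound. Libraries 1 to 3 of the wild-type group came from wild-type mice, and libraries 1 to 3 of the heterozygous group came from mice heterozygous for Celsr3, which encodes an adhesion receptor of the cadherin family that guides growing axons. The labels name neither the Celsr3 allele nor the mice's strain, age or sex, and do not say whether a library is 1 mouse or several. According to the series title, the question was whether loss of Celsr3 alters dopamine signalling in the striatum.

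The striatum receives dense dopamine fibres from the midbrain, whose cell bodies lie outside the dissected tissue. Dopamine is made when tyrosine hydroxylase converts tyrosine to L-DOPA and aromatic L-amino acid decarboxylase, the product of Ddc, removes the carboxyl group. Monoamine oxidases A and B, the products of Maoa and Maob, sit in the outer mitochondrial membrane and oxidise dopamine to an aldehyde, which aldehyde dehydrogenases turn into an acid. Monoamine oxidase A prefers serotonin and noradrenaline, monoamine oxidase B prefers phenylethylamine, and both accept dopamine. In the capillaries of the brain, Ddc and the monoamine oxidases are known as parts of an enzymatic barrier to circulating L-DOPA and amines. Nuclear RNA does not report the proteins, and mRNA held in the incoming dopamine fibres is not sampled by a preparation of nuclei.

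Maoa and Maob lie side by side on the X chromosome. In GRCm38, Maoa (ENSMUSG00000025037.6) spans X 16619698 to 16687818 on the plus strand with 15 exons, and Maob (ENSMUSG00000040147.14) spans X 16709282 to 16817366 on the minus strand with 15 exons in its longest transcript. Their 3′ ends face each other across 21.5 kb, and neither overlaps another annotated gene. Since both are X-linked and the labels give no sex, the balance of the sexes between the groups is not known for them. Ddc (ENSMUSG00000020182.16) spans 84.0 kb of chromosome 11, from 11814101 to 11898144 on the minus strand, with 15 exons in its longest transcript. The antisense gene 1700042O10Rik (ENSMUSG00000086391.1) runs on the plus strand from 11868123 to 11885321, wholly inside Ddc, and no exon of one overlaps an exon of the other. Coding transcripts of Ddc begin at more than 1 place, and the outermost coding starts lie 7736 bases apart. The 250 bases before both Ddc starts are shown because the gene was read most in nuclei that are not neurons, and those before the Maoa start are shown beside them. The RefSeq table for GRCm38.p6 held 2 of the 3 genes, Ddc and Maoa. Capitals mark matches on either strand to 3 short motifs: a GC box (GGGCGG), a SOX factor core (ACAAAG) and a TATA box (TATAAA).
Ddc, outer start, chr11:11898145-11898394, minus strand: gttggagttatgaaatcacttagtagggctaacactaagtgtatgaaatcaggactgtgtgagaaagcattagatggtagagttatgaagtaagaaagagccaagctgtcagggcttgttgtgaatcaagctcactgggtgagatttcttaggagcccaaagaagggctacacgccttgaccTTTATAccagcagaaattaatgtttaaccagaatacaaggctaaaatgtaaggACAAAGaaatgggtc
Ddc, inner start, chr11:11890409-11890658, minus strand: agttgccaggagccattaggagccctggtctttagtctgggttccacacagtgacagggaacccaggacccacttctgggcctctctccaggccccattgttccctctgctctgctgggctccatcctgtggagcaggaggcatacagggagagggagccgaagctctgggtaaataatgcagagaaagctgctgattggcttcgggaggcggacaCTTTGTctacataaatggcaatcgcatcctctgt
Maoa start, chrX:16619448-16619697, plus strand: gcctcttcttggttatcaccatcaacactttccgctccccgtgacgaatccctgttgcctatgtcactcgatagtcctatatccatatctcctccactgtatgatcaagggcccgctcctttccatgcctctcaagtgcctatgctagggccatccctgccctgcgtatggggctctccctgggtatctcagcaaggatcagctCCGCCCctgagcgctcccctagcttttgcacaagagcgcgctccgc
The outer Ddc stretch has a G plus C content of 40.8% with 1 TATA box and 1 SOX core, and the inner one 56.0% with 1 SOX core. The Maoa stretch has 56.8% and 1 GC box. Over all 32851 promoters of the same length, 32.7% hold the GC box, 16.5% the SOX core and 12.4% the TATA box, so each match is common. A match is a run of letters and not a binding site, and reads from the 3′ end do not show which Ddc start was used.

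Libraries held 7735 to 8875 nuclei, with medians of 2456 to 3011 genes detected per nucleus, and 274 of 48559 distinct barcodes occurred in more than 1 library. All 48834 nuclei were grouped in 45 clusters made without the 3 genes and the other genes of the pathway. Then 901 doublet-like nuclei were set aside, some of them as whole clusters, and 47933 were kept. The clusters set aside included c29 and c42, which were border-associated macrophage-like. Clusters were called by their marker genes, always as "like" that type, and 14 classes had at least 20 nuclei in every library. Another 3 small classes (choroid plexus, ependymal and fibroblast) were described only, and 6 kept clusters with 5338 nuclei stayed unnamed. Heterozygous library 1 stood apart in its mix, with 1545 glutamatergic neuron-like nuclei against 207 to 936 in the others, and 29 oligodendrocyte precursor-like (OPC-like) nuclei against 128 to 296. Heterozygous libraries 2 and 3 also stood apart, with 1451 and 1462 nuclei in unnamed clusters against 296 to 890 in the others. Of the 282 nuclei of unnamed cluster c27, doublet-like ones included, 272 came from heterozygous library 3. Celsr3 itself was lower in every heterozygous library, at 0.0653 on average against 0.0945 in the wild type over all nuclei (log2 change −0.46 ± 0.14 SE, limma, Benjamini-Hochberg adjusted p = 0.46). Of 7 markers of midbrain dopamine neurons in the table, Pitx3 was above 0 in 0.0209% of nuclei, En1 in 0.0229%, Foxa1 in 0.0104%, Lmx1b in 0.436%, En2 in 0.444%, Lmx1a in 0.693% and Nr4a2 in 4.22%. The dopamine transporter Slc6a3 averaged 0.000289. Below, a level is the mean deposited value per nucleus of a library. It is a depth-corrected score on a linear scale and is compared within a gene only, since genes differ in length and capture.

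Maoa had values above 0 in every class, and its level in endothelial-like nuclei stood above all others. Low levels are not read as expression, since RNA free in the droplets was not corrected for here. For example, 9 choroid plexus markers summed to 2.56, 2.62 and 3.72 in astrocyte-like nuclei of the 3 libraries that held choroid plexus-like nuclei and to 0.475 to 0.742 in the others. The part of free RNA in the low levels of the 3 enzymes was not tested. Endothelial-like nuclei had Maoa at 1.17, 1.30 and 1.17 for wild-type libraries 1 to 3 and at 1.48, 0.828 and 0.966 for heterozygous libraries 1 to 3, a mean of 1.15 ± 0.232 (SD, n = 6). Every endothelial-like library lay above every library of the other 13 classes, and 47.1% of the 975 nuclei had a value above 0. Cholinergic interneuron-like nuclei came second with 0.533, 0.300 and 0.500 in the wild type and 0.406, 0.302 and 0.605 in the heterozygotes, a mean of 0.441. The endothelial-like mean was 2.61-fold higher, and higher in 6 of 6 libraries. The log2 difference of 1.39 gave an exact two-sided sign-flip p of 0.03125 over libraries, the smallest that 6 libraries allow, and 0.174 after Benjamini-Hochberg adjustment over the 39 neighbouring pairs of the 3 genes. That adjusted value was also the smallest of the 39, so no neighbour pair of any gene passed 0.05. Passing would have needed most of the 39 pairs to reach 0.03125 together, so not passing decides nothing about a single pair. The neighbours were also taken from the order in the same data.

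Below these classes, Maoa stepped down without clear gaps. Cholinergic interneuron-like nuclei were above astrocyte-like nuclei (0.221) in 6 of 6 libraries. Astrocyte-like and glutamatergic neuron-like nuclei (0.219) could not be ordered, with 3 of 6 libraries each way (exact p = 0.906). The striatal neurons followed closely: eccentric medium spiny neuron-like (MSN-like) nuclei at 0.178, GABAergic interneuron-like at 0.162, D1 MSN-like at 0.144 and D2 MSN-like at 0.141. D1 and D2 MSN-like nuclei, the direct- and indirect-pathway projection neurons that make up most striatal neurons, differed by 0.03 on the log2 scale (exact p = 0.688). OPC-like (0.136), mural-like (0.127), neuroblast-like (0.122) and committed oligodendrocyte precursor-like nuclei (0.106) had overlapping library ranges. Oligodendrocyte-like nuclei (0.0843) and microglia-like nuclei (0.0483) were lowest, and 2.60% of microglia-like nuclei had a value above 0 against 12.9% of all nuclei. Microglia-like nuclei had a median of 1896 genes detected and endothelial-like ones 1903, while depth before correction is unknown.

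Because endothelial-like nuclei are few, their high level did not make them the largest source. They were 2.04% of nuclei and held 14.3% of the summed Maoa value, with a range over libraries of 7.44% to 19.1%. D1 MSN-like nuclei held 16.3% as 19.1% of nuclei, and astrocyte-like nuclei held 14.6% as 11.1% of nuclei. Cholinergic interneuron-like nuclei held 1.17%.

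Maob had a narrower distribution, with 3 classes well above the rest. Cholinergic interneuron-like nuclei gave 0.267, 0.375 and 0.4 in the wild type and 0.344, 0.558 and 0.279 in the heterozygotes, a mean of 0.370 ± 0.106 (SD, n = 6). Of their 218 nuclei, 67 had a value above 0 (30.7%). Astrocyte-like nuclei gave 0.307, 0.286 and 0.306 against 0.268, 0.254 and 0.213, a mean of 0.272, with 19.1% of 5327 nuclei above 0. Both ranges overlap: cholinergic interneuron-like nuclei were higher in 5 of 6 libraries (log2 difference 0.40, exact p = 0.0625, adjusted p = 0.203). Cholinergic interneuron-like nuclei had a median of 3758 genes detected, against 2030 in astrocyte-like nuclei. With each nucleus divided by its total, the means were closer, at 0.333 and 0.293, in the same order. These totals are of the depth-corrected score, so dividing by them does not address depth before correction. Over the other settings the log2 difference ran from 0.14 to 0.63 (exact sign-flip test, adjusted p = 0.203 to 0.922).

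Endothelial-like nuclei were next for Maob at 0.141, below astrocyte-like nuclei in 6 of 6 libraries. Glutamatergic neuron-like nuclei followed at 0.0551, and among their clusters the highest, c15, reached 0.0992 ± 0.0588 (SD, n = 6 libraries). All other classes were at or below 0.0257. In the projection neurons Maob was low, at 0.0236 in D1 and 0.0165 in D2 MSN-like nuclei. GABAergic interneuron-like nuclei had 9 nuclei of 1479 with a value above 0, and committed oligodendrocyte precursor-like nuclei had 3 of 392. Interneurons of the GABAergic and cholinergic kind thus lay near opposite ends of the Maob order, and their level differed in each of the 6 libraries.

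Some small classes were high for Maob. Choroid plexus-like nuclei, found in 3 libraries, gave 0.746 and 0.653 in wild-type libraries 1 and 2 and 0.800 in heterozygous library 3, above every library of the 14 larger classes. Ependymal-like nuclei, which line the ventricles, averaged 0.313 and ranged from 0.0769 to 0.700 over libraries of 10 to 47 nuclei. Choroid plexus-like nuclei were 0.483% of nuclei and held 5.11% of the Maob value (0% to 14.1% by library). Astrocyte-like nuclei held the largest part, 47.4% (31.7% to 57.3%), as 11.1% of nuclei. The 3 astrocyte-like clusters were of like level, at 0.291, 0.226 and 0.257.

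**Figure D1:**
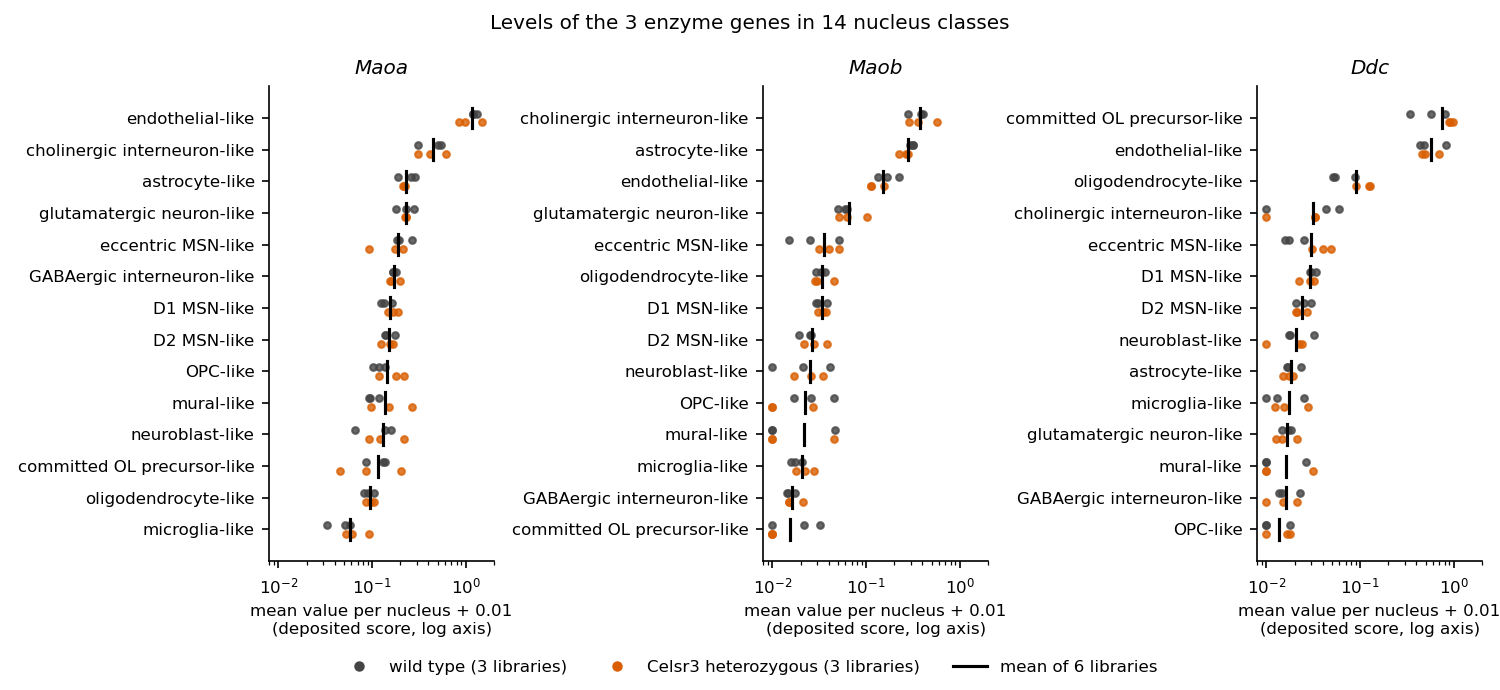
Level of Maoa, Maob and Ddc in 14 classes of nuclei (horizontal log axis, mean deposited score per nucleus plus 0.01); points are the 6 libraries by genotype and black bars their mean, with classes in order of level within each panel. Endothelial-like nuclei lead for Maoa at 1.15, cholinergic interneuron-like and astrocyte-like for Maob at 0.370 and 0.272, and committed oligodendrocyte (OL) precursor-like and endothelial-like for Ddc at 0.736 and 0.555.

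Ddc was low in most nuclei and high in a pair of classes that are not neurons. Over all nuclei 3.05% had a value above 0. Committed oligodendrocyte precursor-like nuclei, an intermediate step between OPCs and myelinating cells that is marked by Bmp4, Gpr17 and Enpp6, gave 0.560, 0.788 and 0.330 in the wild type and 0.893, 0.870 and 0.978 in the heterozygotes. Their mean was 0.736 ± 0.245 (SD, n = 6), and 28.8% of 392 nuclei were above 0. Endothelial-like nuclei gave 0.816, 0.429 and 0.475 against 0.485, 0.680 and 0.443, a mean of 0.555, with 26.4% above 0. Both ranges overlap and the order was not resolved, with the precursor-like nuclei higher in 4 of 6 libraries (exact p = 0.281, adjusted p = 0.645).

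Oligodendrocyte-like nuclei came next at 0.0795, below endothelial-like nuclei in 6 of 6 libraries by 2.71 on the log2 scale (exact p = 0.03125, adjusted p = 0.174). Next were cholinergic interneuron-like nuclei at 0.0216, eccentric MSN-like at 0.0198 and D1 MSN-like at 0.0196, which could not be ordered. D2 MSN-like nuclei averaged 0.0141 and were below D1 in 5 of 6 libraries. Astrocyte-like nuclei, high for Maob, averaged 0.00814 for Ddc. The lowest class was OPC-like, at 0.00374, where 5 of 977 nuclei had a value above 0 (0.512%, median 2120 genes detected, against 2484 in the committed precursor-like class). Endothelial-like nuclei held 25.4% of the Ddc value, oligodendrocyte-like nuclei 29.7% and committed precursor-like nuclei 13.3%, and the last were 0.813% of nuclei.

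**Figure D2:**
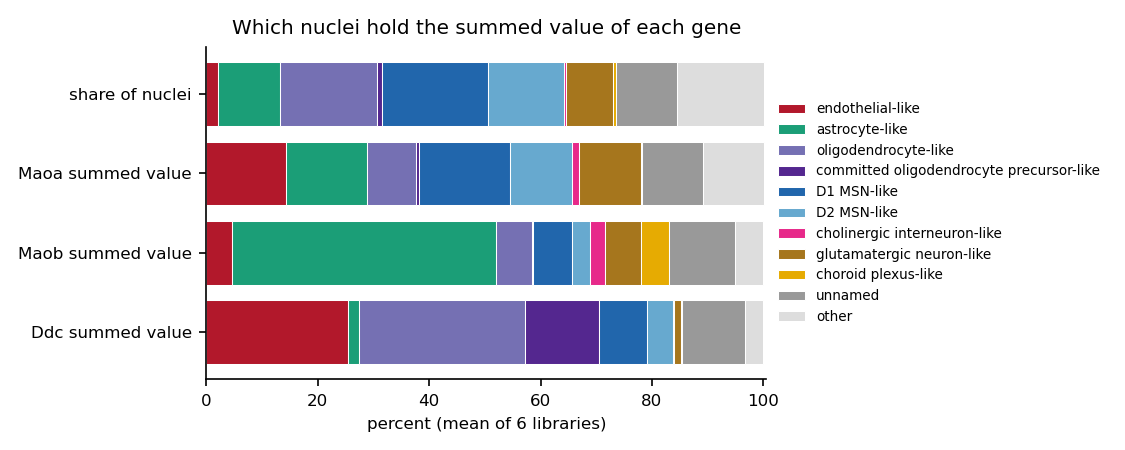
Share of nuclei in each class (top bar) and share of the summed value of Maoa, Maob and Ddc that each class holds (lower bars), in percent as means of 6 libraries. Endothelial-like nuclei are 2.04% of nuclei and hold 14.3% of Maoa and 25.4% of Ddc, while astrocyte-like nuclei hold 47.4% of Maob.

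Within the committed precursor-like nuclei, Ddc differed with the markers of the lineage. Nuclei with Bmp4 at 0 had a mean Ddc level of 1.19 and nuclei with Bmp4 above 0 had 0.174. By library, nuclei with Bmp4 at 0 gave 0.966, 1.39, 0.605, 1.53, 1.12 and 1.53, and those with Bmp4 gave 0, 0.227, 0.0833, 0.154, 0.231 and 0.349, for wild-type libraries 1 to 3 and then heterozygous libraries 1 to 3. The ranges did not overlap, and the shares of nuclei above 0 were 44.8% of 210 and 10.4% of 182, at medians of 2537 and 2401 genes detected. Neu4, another early marker, gave the same order: 1.10 where it was at 0 and 0.410 where it was above 0. Enpp6, a marker of cells that begin to myelinate, gave the reverse: 0.796 in the 352 nuclei with it, while 2.50% of the 40 nuclei without it had any Ddc. With Mog, a myelin protein gene, Ddc averaged 0.982 where it was above 0 and 0.600 where it was at 0, but wild-type library 1 ran the other way (0.500 and 0.615). Opalin, another gene of mature oligodendrocytes, gave the opposite: Ddc was above 0 in 20.5% of the 44 nuclei with it and in 29.9% of the 348 without. Median genes detected also differed, at 2519 with Enpp6 and 2146 without, and 2671 with Mog and 2341 without. For Neu4 they were 2452 with it and 2526 without. In these splits and that by Bmp4, the side with more Ddc had more genes detected. Opalin ran the other way, at 2692 with it and 2452 without. Only 2 libraries held at least 10 nuclei without Enpp6. The part of depth was not tested. Since the markers helped to form this cluster, these are descriptions of its nuclei and carry no test.

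In the oligodendrocyte-like nuclei, Ddc was 0.0999 where Enpp6 was above 0 and 0.0706 where it was at 0, with overlapping libraries. Along the lineage the level was thus 0.00374 in OPC-like nuclei, 0.174 and 1.19 in precursor-like nuclei with and without Bmp4, and 0.0795 in oligodendrocyte-like nuclei. Maoa was at 0.136, 0.106 and 0.0843 in the 3 classes, and the last 2 could not be ordered (3 of 6 libraries each way, exact p = 0.719).

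The antisense gene 1700042O10Rik had the pattern most like that of Ddc. Over the means of the 14 classes its Pearson correlation with Ddc was 0.982, the highest of 15707 genes compared. It averaged 1.01 in committed precursor-like nuclei (1.02, 1.04 and 0.725 in the wild type and 0.893, 0.957 and 1.46 in the heterozygotes), 0.383 in endothelial-like, 0.0728 in oligodendrocyte-like and 0.000563 in OPC-like nuclei. Both were also found in the same nuclei: in the precursor-like class 94 nuclei held both, of 113 with Ddc and 124 with the antisense gene, where the product of the shares gives 35.7. The antisense gene was above 0 in 83.2% of precursor-like nuclei with Ddc and in 10.8% of those without. In endothelial-like nuclei 103 held both against a product of 50.9, and in oligodendrocyte-like nuclei 102 against 24.8. Nuclei with Ddc had more genes detected at the median than those without. The medians were 2718 and 2366 in precursor-like, 2301 and 1849 in endothelial-like, and 1982 and 1873 in oligodendrocyte-like nuclei. The part of depth, and of Bmp4 in the precursor-like class, was not tested. Whether counting used strand is not given in the sources used here. It is thus not known whether reads from the introns of Ddc and from its antisense partner were kept apart.

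**Figure D3:**
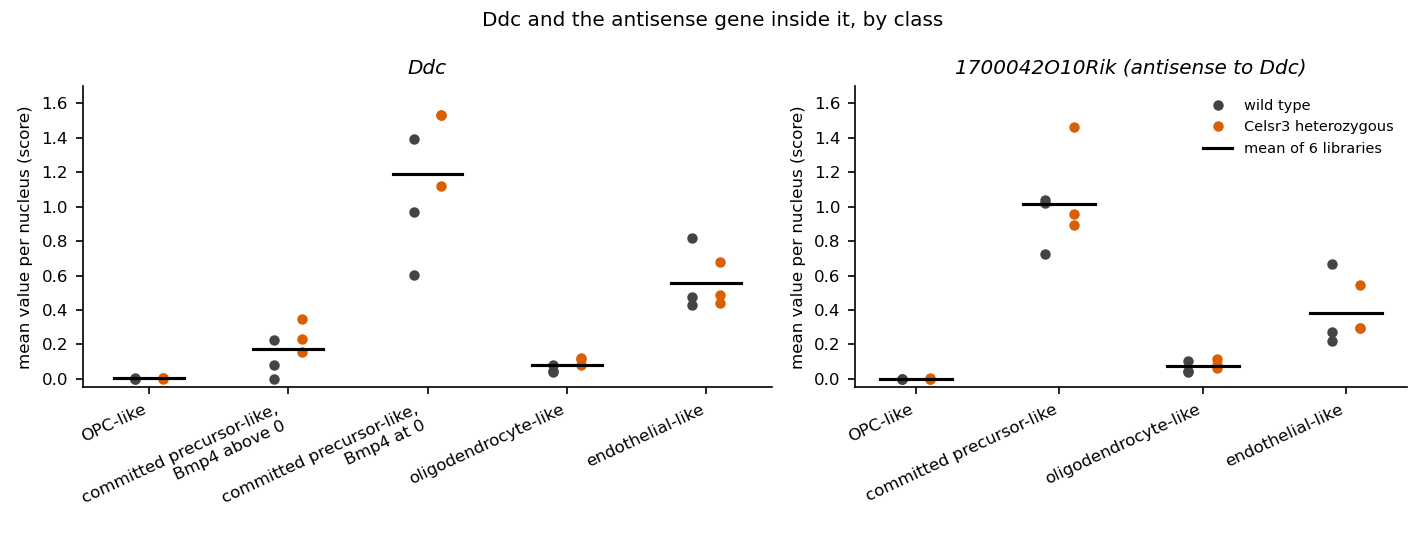
Level of Ddc (left) and of 1700042O10Rik, antisense to Ddc (right), in nuclei of the oligodendrocyte lineage and in endothelial-like nuclei (vertical axis, mean deposited score per nucleus); points are libraries, coloured by genotype, and bars their mean. Both genes are near 0 in OPC-like nuclei and highest in committed precursor-like nuclei, where Ddc is 0.174 with Bmp4 above 0 and 1.19 with Bmp4 at 0.

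Among neurons, Ddc was uneven. The highest neuronal cluster was c38, a small glutamatergic neuron-like one of 49 nuclei, at 0.125 and 0.143 in the 2 libraries with at least 10 nuclei (wild-type 3 and heterozygous 3), with 10.2% of nuclei above 0. Before doublet-like nuclei were set aside, c38 held 71 nuclei, and 30.99% of them had a doublet score above 0.25. That was the largest share of any cluster kept, and the part of doublets in its Ddc level was not tested. Of the D1 MSN-like clusters, the one led by Drd3, the D3 dopamine receptor gene of the ventral striatum, had 0.0515 (0.0171 to 0.0672 over libraries), while the others had 0.0108 and 0.00592. The unnamed cluster led by Sim1 and Baiap3, with the GABA synthesis gene Gad2 at 1.55 to 2.13 and the glutamate transporter gene Slc17a6 at 0.355 to 0.711 over libraries, had 0.0786 over 2558 nuclei, with 0.0578, 0.0482 and 0.112 in the wild type and 0.0345, 0.116 and 0.103 in the heterozygotes. Th, which encodes tyrosine hydroxylase, was highest in GABAergic interneuron-like nuclei (0.0652) and cholinergic interneuron-like nuclei (0.0464). Of the 47933 nuclei 4 had both Ddc and Th, where the product of the shares gives 5.67, numbers too small to tell apart. No endothelial-like or committed precursor-like nucleus had Th above 0.

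Maoa and Ddc were found together most in endothelial-like nuclei, where 175 nuclei had both against a product of shares of 121, and Ddc was above 0 in 38.1% of nuclei with Maoa and 15.9% of those without. Nuclei with Maoa also had more genes detected, 2191 against 1804 at the median, and the part of depth in this was not tested. Maoa and Maob were found together in 62 endothelial-like nuclei against a product of 42.8, and in 192 astrocyte-like nuclei against 162.

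The genes with the class pattern most like each enzyme differed. For Maoa they were Gm20655 (Pearson correlation 0.944 over 14 classes), Urod, Rasip1, Slc30a1 and Tfrc (0.881), each highest in endothelial-like nuclei. Rasip1 encodes an endothelial adaptor protein and Tfrc the transferrin receptor of brain capillaries. For Maob they were Slco1b2 (0.906), 4930527F14Rik, Acss3, Gm16897 and Gm42836 (0.828), and all but Gm16897 were highest in astrocyte-like nuclei. For Ddc, after its antisense partner, they were Gm42716 (0.966), Mlkl, Taldo1 and Pim3 (0.916). Maoa correlated with Maob at 0.725 and with Ddc at 0.355, and Maob with Ddc at 0.074. The points share libraries and clusters, so these values describe the classes and no p-value is given.

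The other genes of the pathway were read from a list of 31, of which 30 were in the table. Of the synthesis and cofactor genes, Qdpr, which regenerates the tetrahydrobiopterin cofactor, had the highest mean score over all nuclei (0.402) and peaked in oligodendrocyte-like nuclei (1.09). Of the transport genes, Slc18a2, the vesicular monoamine transporter, had the highest mean score (0.131) and led in cholinergic interneuron-like nuclei (0.287). These scores served to pick which genes to name and do not rank expression between genes. Chosen after their values were seen, 5 more genes shared the endothelial-like peak of Maoa: the amino acid carrier Slc7a5, which takes up L-DOPA (2.61), Gch1 (0.277) and Spr (0.190) of cofactor synthesis, and Aldh2 (0.682) and Akr1a1 (0.725), which act on the aldehyde that monoamine oxidase makes. Aldh1a1, another aldehyde dehydrogenase, was highest among the 14 classes in astrocyte-like nuclei (1.22), where Maob was second.

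Over all nuclei no difference between genotypes passed the test for any of the 3 genes. Maoa gave 0.166, 0.156 and 0.169 in the wild type and 0.179, 0.174 and 0.165 in the heterozygotes (log2 change 0.07 ± 0.07 SE, adjusted p = 0.697). Maob gave 0.0690, 0.0548 and 0.0613 against 0.0565, 0.0648 and 0.0814 (0.11 ± 0.14, adjusted p = 0.760). Ddc gave 0.0502, 0.0383 and 0.0356 against 0.0367, 0.0623 and 0.0459 (0.17 ± 0.19, adjusted p = 0.711). The levels of both genotypes overlapped for each gene. The share of nuclei with Maoa did not: it was 12.5%, 11.7% and 13% in the wild type and 13.5%, 13.8% and 13.1% in the heterozygotes (exact permutation p = 0.1, the smallest possible, and 0.9 adjusted over 45 shares). By level, a different measure, 14.8% of all genes tested were higher without overlap. Overlap by share of nuclei was not computed for all genes. All changes are heterozygous minus wild type on log2(level + 0.01), tested with limma over all genes that passed a filter on low values and adjusted by Benjamini-Hochberg over them. In this fit 0 of 14397 genes were called at an adjusted p under 0.05 (0%), 9.95% had an unadjusted p under 0.05, and the median change over all genes was 0.07. The directions were not stable: leaving out heterozygous library 3 turned Maob to −0.02, leaving out heterozygous library 2 took Ddc to 0.00, and weighting clusters equally turned Maoa to −0.03.

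By class, 15 of the 42 pairs of gene and class passed the filter and 0 were called by limma, while 3 had an unadjusted p under 0.05. Maoa passed in 8 classes, Maob in 4 and Ddc in 3. The share of all genes called was 0.0147% for D1 MSN-like, 0.00803% for D2 MSN-like and 0.00796% for glutamatergic neuron-like nuclei, and 0% for the other 6 classes with a tested member. Over these 9 classes 3.24% to 10.1% of genes had an unadjusted p under 0.05, and 9.07% to 16.9% showed no overlap of the genotypes. Libraries of the genotypes did not overlap in 3 of the 15 pairs, the same 3 with the unadjusted p: Maob in astrocyte-like nuclei, and Ddc in oligodendrocyte-like and in committed precursor-like nuclei.

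Maob in astrocyte-like nuclei was 0.307, 0.286 and 0.306 in the wild type and 0.268, 0.254 and 0.213 in the heterozygotes. Each heterozygous library was below each wild-type one, with means of 0.300 and 0.245. The log2 change was −0.28 ± 0.12 SE (limma, unadjusted p = 0.0399, adjusted p = 0.764) and did not pass the test. Of all genes in this class, 4.76% were lower without overlap and 3.36% were lower at an unadjusted p under 0.05. The share of nuclei with Maob was 21.3%, 21.2% and 21.1% against 17.7%, 18% and 16% (exact permutation p = 0.1, the smallest that 3 against 3 allow, and 0.9 adjusted over 45 shares). In c3, the largest astrocyte-like cluster, the genotypes did not overlap (0.339, 0.305 and 0.335 against 0.287, 0.254 and 0.224), while in the other clusters, c8 and c19, they did. Heterozygous library 1 had 4.68% of its astrocyte-like nuclei in c8, against 20.5% to 42.0% in the other libraries. The summed level of 8 committed precursor markers in these nuclei was 3.24 to 3.33 in the wild type and 2.56 to 3.14 in the heterozygotes, with 2 of 8 lower without overlap and none at 0. That of 10 neuroblast markers was 0.216 to 0.271 against 0.276 to 0.366, with no single marker apart and none at 0, and the astrocyte markers summed to 121 to 133 in both. Their part in the Maob values was not tested.

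Ddc in oligodendrocyte-like nuclei was 0.0778, 0.0437 and 0.0414 in the wild type and 0.119, 0.115 and 0.0802 in the heterozygotes. Each heterozygous library was above each wild-type one, though heterozygous library 3 and wild-type library 1 lay close together. The log2 change was 0.86 ± 0.23 SE (limma, unadjusted p = 0.00437, adjusted p = 0.525) and did not pass the test. With a pseudocount of 0.1 the log2 change was 0.41. In the background, 6% of genes were higher without overlap and 2.42% were higher at an unadjusted p under 0.05. The share of nuclei with Ddc averaged 4.14% and 7.85% (exact permutation p = 0.1, the smallest possible). Clusters c7 and c16 each showed no overlap, and c1, the largest, did (0.0678, 0.0354 and 0.0356 against 0.0956, 0.102 and 0.0575). In the 5671 nuclei with Enpp6 at 0 the values were 0.0657, 0.0469 and 0.0339 against 0.0990, 0.108 and 0.0699, again without overlap, and in the 2714 with Enpp6 they were 0.101, 0.0379 and 0.0579 against 0.170, 0.136 and 0.0974, which overlap. The antisense gene gave 0.103, 0.0437 and 0.0371 against 0.0789, 0.113 and 0.0613, with overlap (0.48 ± 0.32, adjusted p = 0.996). The summed level of 9 OPC markers in these nuclei was 2.58 to 2.94 in the wild type and 3.01 to 3.24 in the heterozygotes, with no single marker apart and none at 0. Its part in the Ddc values was not tested.

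Ddc in committed precursor-like nuclei was 0.560, 0.788 and 0.330 against 0.893, 0.870 and 0.978, in 28 to 92 nuclei per library. The wild-type libraries were spread over more than the gap between the groups, and wild-type library 3 was lowest. The log2 change was 0.78 ± 0.28 SE (limma, unadjusted p = 0.0151, adjusted p = 0.623) and did not pass the test, where 5.69% of genes were higher without overlap and 3.24% were higher at an unadjusted p under 0.05. Without wild-type library 3 it was 0.45 ± 0.25 (adjusted p = 0.967). The share of nuclei with Ddc was 22%, 32.9% and 17.6% against 35.7%, 39.1% and 32.6%, with overlap (exact permutation p = 0.2). In the 210 nuclei with Bmp4 at 0, the Ddc levels were 0.966, 1.39 and 0.605 against 1.53, 1.12 and 1.53, which overlap. In the 182 with Bmp4 above 0 they were 0, 0.227 and 0.0833 against 0.154, 0.231 and 0.349, which also overlap. The antisense gene did not follow beyond its spread (0.23 ± 0.23, adjusted p = 0.857). The summed level of 10 microglia markers in these nuclei was 1.11 to 1.92 in the wild type and 0.500 to 1.04 in the heterozygotes, with 2 of 10 lower without overlap and none at 0. That of 8 eccentric MSN markers was 1.11 to 1.26 against 0.964 to 1.03, and the part of either in the Ddc values was not tested.

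**Figure D4:**
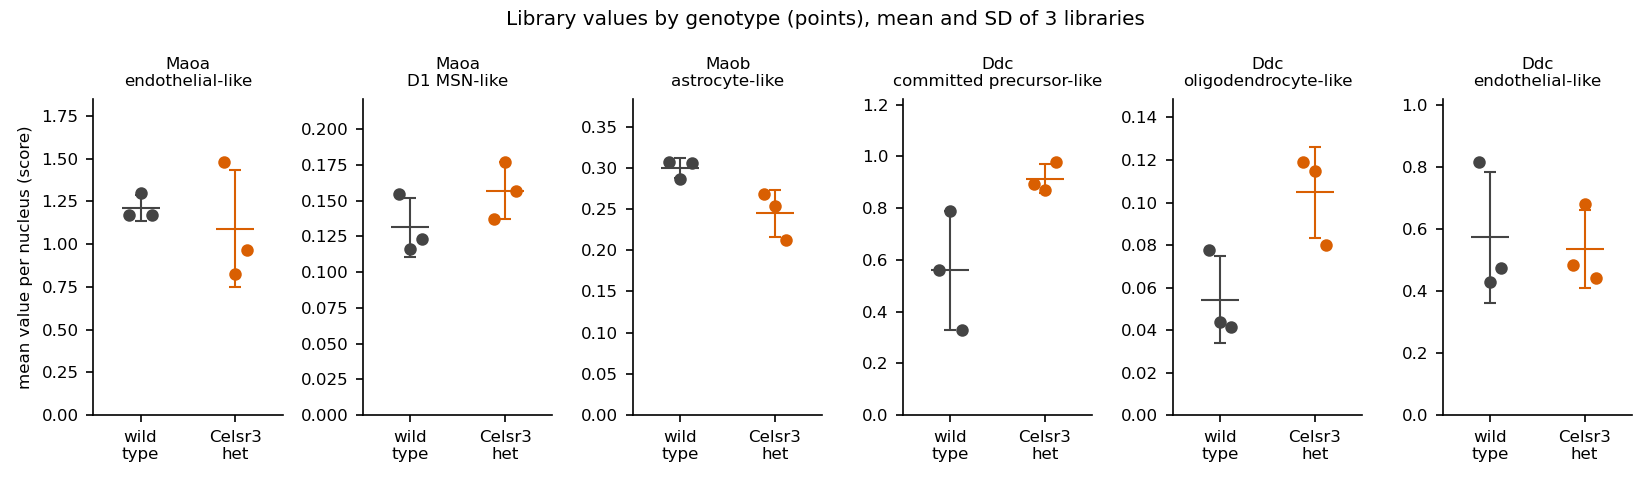
Level of each enzyme gene by genotype in 6 pairs of gene and class (vertical axes, mean deposited score per nucleus, each from 0); points are libraries, and bars mean ± SD of 3. Wild-type and heterozygous libraries do not overlap for Maob in astrocyte-like nuclei (0.300 and 0.245 on average) and for Ddc in committed precursor-like (0.559 and 0.914) and oligodendrocyte-like nuclei (0.0543 and 0.105), and they overlap in the other panels; none passed the adjusted test.

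In the class where Maoa was highest, its change did not pass the test: endothelial-like nuclei averaged 1.21 in the wild type and 1.09 in the heterozygotes (−0.19 ± 0.20, limma, adjusted p = 0.965). That change was −0.43 without heterozygous library 1 and −0.02 without heterozygous library 2. Ddc in endothelial-like nuclei averaged 0.573 and 0.536 (−0.06 ± 0.26, adjusted p = 0.991), and this sign turned without wild-type library 1 (0.22). In D1 MSN-like nuclei Maoa gave 0.155, 0.116 and 0.123 against 0.137, 0.177 and 0.157, which overlap (0.25 ± 0.14, adjusted p = 0.576, and 0.16 without heterozygous library 2). In D2 MSN-like nuclei the change was 0.00 ± 0.15. The difference between both changes was 0.25 ± 0.11 (limma interaction, unadjusted p = 0.042, adjusted p = 0.948, where 0 of 12416 genes, 0%, were called), so the classes were not shown to differ. Between astrocyte-like and D1 MSN-like nuclei the change differed by −0.36 ± 0.18 for Maob and −0.38 ± 0.23 for Maoa (adjusted p = 0.866 for each, with 0.00968% of genes called), and the value for Maoa was −0.67 without wild-type library 1 and −0.18 without wild-type library 2. Changes of Maoa in the remaining tested classes ranged from −0.47 ± 0.31 in eccentric MSN-like nuclei (−0.11 without heterozygous library 3) to 0.08 ± 0.15 in oligodendrocyte-like nuclei (−0.01 without wild-type library 1).

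**Figure D5:**
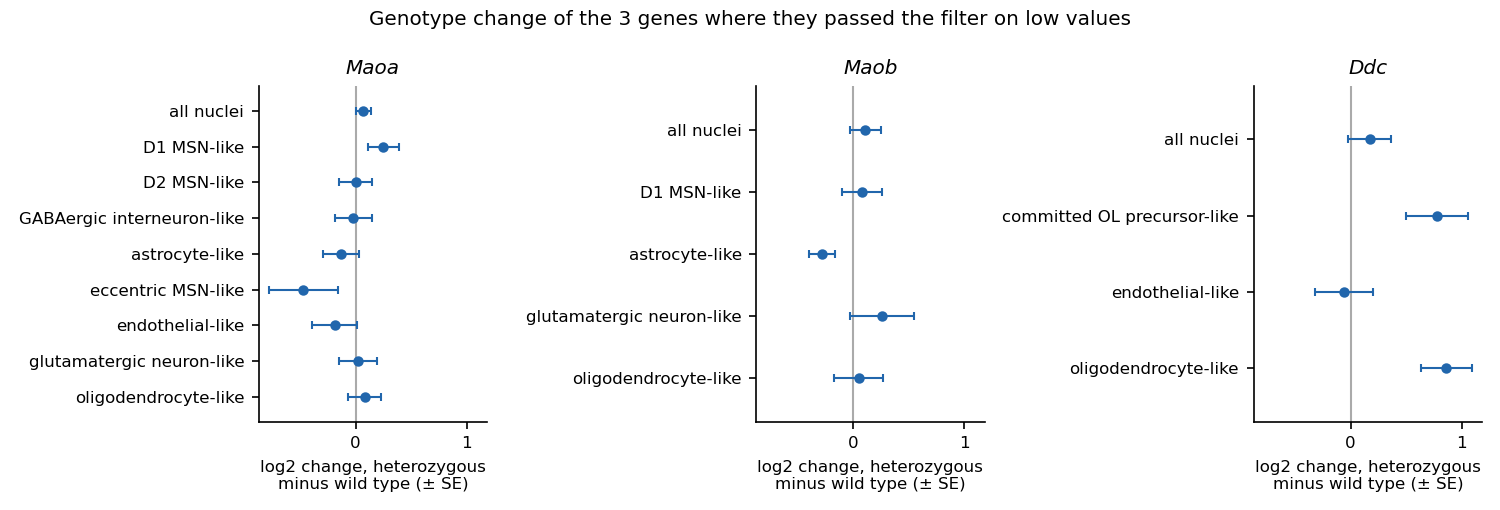
Log2 change of Maoa, Maob and Ddc, heterozygous minus wild type, in all nuclei and in each class where the gene passed the filter on low values (horizontal axes, log2 of level plus 0.01; bars are ± SE). The largest sizes are for Ddc, 0.86 in oligodendrocyte-like and 0.78 in committed precursor-like nuclei, and no point passed an adjusted p of 0.05.

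In 27 pairs the gene was too low to be tested. Among them 1 showed no overlap, Ddc in eccentric MSN-like nuclei, with 0.00592, 0.00752 and 0.0154 in the wild type and 0.0390, 0.0299 and 0.0208 in the heterozygotes. In that class 22 of 1143 nuclei had Ddc, and of the genes tested there 5.16% were higher without overlap. For Maob, OPC-like nuclei gave 0.0156, 0.0354 and 0.00704 against 0, 0 and 0.0169, with 16 nuclei above 0 in all.

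The tissue level of a gene depends on which nuclei were caught as well as on the level in each. For Ddc, the heterozygous mean over all nuclei was 0.00695 higher, of which −0.00539 came from the mix of classes and 0.0123 from levels within classes, and this difference rests on heterozygous library 2. For Maob the difference of 0.00584, which rests on heterozygous library 3, held a fall of 0.00492 in what astrocyte-like nuclei contributed and a rise of 0.00912 in what the unnamed clusters contributed. For Maoa the difference of 0.00879 split into 0.00377 from the mix and 0.00502 from levels. In these splits the unnamed clusters counted as a single class, so a change of mix among them is counted under levels. They held 0.00294 of the part from levels for Maoa and 0.00268 of that for Ddc. Among the unnamed clusters, c22, a glutamatergic cluster with Slc17a6 and led by Trpm6, Lhx9 and Shox2, had Maob at 0.0650, 0.134 and 0.174 in the wild type and 0.512 and 0.558 in heterozygous libraries 2 and 3, with no nucleus in heterozygous library 1. Other genes of c22 moved too, such as Lef1, at 7.23, 6.70 and 7.48 against 4.25 and 3.00. No test was made in that cluster.

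Around the 3 enzymes, no pathway gene was called. Over all nuclei 19 of the 31 listed genes passed the filter, 13 higher and 6 lower in the heterozygotes and 0 called (limma; 1 at an unadjusted p under 0.05), with a median change of 0.04 against 0.07 over all genes. In D1 MSN-like nuclei 18 passed, with 0 called and 6 at an unadjusted p under 0.05, 3 in each direction, and a median of 0.07 against 0.06. Slc18a2, which loads dopamine into vesicles, gave 0.160, 0.149 and 0.147 in the wild type and 0.108, 0.0996 and 0.122 in the heterozygotes over all nuclei, without overlap (−0.43 ± 0.09, unadjusted p = 0.00227, adjusted p = 0.437). Its groups did not overlap in D1 MSN-like (0.228 and 0.158 on average, adjusted p = 0.293), D2 MSN-like (0.213 and 0.158, adjusted p = 0.437) and astrocyte-like nuclei (0.0621 and 0.0332, adjusted p = 0.590) either. Of the 14 classes, it was lower without overlap in 8, among them GABAergic interneuron-like nuclei (0.242, 0.170 and 0.199 against 0.111, 0.0944 and 0.124), and overlapped in 5. In endothelial-like nuclei, where it was too low to be tested, it ran the other way without overlap, at 0.0526, 0.0565 and 0.0559 against 0.0667, 0.0625 and 0.0747, and 5.35% of genes tested there were higher without overlap. The classes share the same libraries and are not separate observations, and the part of free RNA in their Slc18a2 values was not tested. Of all genes, 4.42%, 5.28%, 5.27% and 4.76% were lower without overlap in all, D1 MSN-like, D2 MSN-like and astrocyte-like nuclei. Over the 14 classes this share ran from 3.07% in OPC-like to 6.13% in GABAergic interneuron-like nuclei. In D1 MSN-like nuclei Aldh7a1 averaged 0.235 in the wild type and 0.274 in the heterozygotes, and Aldh9a1 0.0362 and 0.0493. In the same nuclei Aldh1a1 averaged 0.0460 and 0.0211, and the sulfotransferase gene Sult1a1 0.0346 and 0.0239. Aldh1a1 also lay without overlap in D2 MSN-like nuclei, 0.0415 and 0.0219, and Aldh9a1 in astrocyte-like nuclei, 0.104 and 0.132. Of all genes, 11.6% in D1 MSN-like and 7.38% in astrocyte-like nuclei were higher without overlap. None of these passed the adjusted test, and their adjusted p-values ran from 0.381 to 0.788. Of all genes tested, for comparison, 5.79% in D1 MSN-like nuclei were higher and 4.3% lower at an unadjusted p under 0.05.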

How the data were processed

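Single-nucleus RNA libraries of 6 striatum samples were made with a 3′-end droplet kit, per the labels' protocols, and all 6 shared a sequencing lane. Cell Ranger, Seurat 4.1 and the build mm10 (GRCm38) are named in the submitters' processing notes, without their roles; the aligner, the filters and strand use are not given in the sources used here. The deposited table holds whole numbers per gene and nucleus that are a score and not raw counts: totals per nucleus vary by a coefficient of variation of 10.7%, and 10.0% of nuclei hold 2 or 3 but never 1 for low genes. The correction behind this score was read from the values, so no count model and no counting interval was used, and the depth per nucleus before correction is unknown.

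Nuclei with a Scrublet score above 0.25, and clusters with over 40% of them, were left out (Scrublet's own call marked 0.317% to 0.824% per library). Before any were left out, all nuclei were clustered with scanpy 1.11.5 (2000 variable genes without the 3 enzymes and their pathway, 30 components, 15 neighbours, Leiden resolution 1.0) and named by markers, with naming thresholds set after the clusters were seen. Doublet-like nuclei thus took part in forming the clusters. Library means per nucleus were tested with limma 3.58.1 in R 4.3.3 (trended empirical Bayes, log2 of mean + 0.01, two-sided, Benjamini-Hochberg adjustment) for genes with a mean of at least 0.02 and a sum of at least 30, both averaged over the 6 libraries, so that single libraries could hold less. The limma step was tested on simulated data. Orders of classes and shares of nuclei were tested with exact sign-flip and permutation tests over libraries. Positions are from the GRCm38 annotation and promoter sequences from RefSeq.

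Beside the 3 enzymes, the text names pathway genes with an unadjusted p under 0.05 and no overlap of genotypes in all, D1 MSN-like, D2 MSN-like or astrocyte-like nuclei, the highest of each role, and the 5 genes most alike in pattern. A pathway gene that this rule names is not reported here. The members and lists were chosen with earlier results of these data known. The labels call the samples biological replicates; the shared numbers 1 to 3 are not stated to mark a pairing. Alternatives changed the pseudocount, filter, scaling, weights, replicate block, doublets and libraries.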

Additional observations from a re-analysis of the deposited data

How the results depend on the processing

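Over 44 tested results and 553 values under other settings, 485 did not turn sign and kept their side of the threshold (or, for counts of genes, stayed within 1.5 times), 17 turned sign and 51 counts of genes moved. A change or an alternative without a sign after rounding could not turn under this rule. Maoa in D2 MSN-like nuclei, reported without a sign, ran from −0.13 to 0.12 over the settings and was counted as not turned. Of the 21 changes of the 3 enzymes between genotypes or classes, 276 of 290 alternative values did not turn sign and 0 reached an adjusted p of 0.05 in limma. The smallest was 0.0619, for Ddc in oligodendrocyte-like nuclei with array weights (1.11). That change ran from 0.41 (pseudocount 0.1) to 1.11, Maob in astrocyte-like nuclei from −0.35 to −0.19 without 1 library, and Ddc in committed precursor-like nuclei from 0.45 to 1.07. The class that led for each enzyme also led by share of nuclei above 0, with doublets kept and with each nucleus divided by its total.

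Signs turned as follows; the cause was not tested. Maoa turned over all nuclei with equal cluster weights (−0.03), in GABAergic interneuron-like nuclei with doublets kept (0.05), in glutamatergic neuron-like nuclei with size factors (−0.02), and in its share of all nuclei at a value of at least 2 (−0.0103). Maob turned in oligodendrocyte-like nuclei with array weights (−0.04). Leaving out 1 library gave these ranges: −0.02 to 0.21 for Maob in all nuclei, −0.14 to 0.04 for Maoa in GABAergic interneuron-like nuclei, −0.24 to 0.22 for Ddc in endothelial-like nuclei, −0.15 to 0.17 for Maoa in glutamatergic neuron-like nuclei, −0.03 to 0.47 for Maob in glutamatergic neuron-like nuclei, −0.01 to 0.17 for Maoa in oligodendrocyte-like nuclei, −0.16 to 0.16 for Maob in oligodendrocyte-like nuclei, −0.0157 to 0.795 percentage points for the share of all nuclei with Maob, −0.0523 to 0.854 percentage points for the share of all nuclei with Ddc.

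Counts of called genes moved in classes as follows. Array weights gave 311 in D1 MSN-like (2 as reported), 301 in D2 MSN-like (1), 8 in oligodendrocyte-like (0) and 2 in endothelial-like nuclei (0). Without the filter there were 3 in D2 MSN-like, 2 in eccentric MSN-like, 2 in endothelial-like, 1 in microglia-like, 1 in mural-like and 0 in glutamatergic neuron-like nuclei (1). Equal cluster weights gave 3 in D2 MSN-like, 2 in GABAergic interneuron-like, 4 in astrocyte-like and 0 in glutamatergic neuron-like nuclei; they could not be fitted for classes of 1 cluster. Size factors gave 2 in D2 MSN-like, and a pseudocount of 0.001 gave 0 in glutamatergic neuron-like nuclei. The difference between D1 and D2 MSN-like changes was called for 1 gene (0 as reported) with a pseudocount of 0.1, size factors or array weights, and that between astrocyte-like and D1 MSN-like changes for 2 with array weights and 3 with equal cluster weights (1). Leaving out 1 library gave these ranges of counts: 1 to 157 for D1 MSN-like, 0 to 153 for D2 MSN-like, 0 to 1 for astrocyte-like, 0 to 2 for committed oligodendrocyte precursor-like, 0 to 2 for glutamatergic neuron-like, 0 to 14 for microglia-like, 0 to 1 for neuroblast-like, 0 to 3 for oligodendrocyte-like, 0 to 13 for the difference D1 MSN-like against D2 MSN-like, 1 to 5 for the difference astrocyte-like against D1 MSN-like. Without wild-type library 1 the D1 count was 157 and the D2 count 153, and without heterozygous library 3 the microglia-like count was 14 and that of the difference between D1 and D2 MSN-like changes 13.

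With the replicate number as a block, the count was 26 in D2 MSN-like, 1 in endothelial-like, 1 in oligodendrocyte-like and 0 in glutamatergic neuron-like nuclei, and 1 for the difference between D1 and D2 MSN-like changes. Ddc in oligodendrocyte-like nuclei kept 0.86 under the block (adjusted p = 0.305). The labels do not state a pairing by number. Deviations of same-numbered libraries correlated at −0.037, 0.145 and −0.071, and those of differently numbered ones at −0.149 to 0.184. Because deviations were taken from the mean of each group of 3, these values cannot decide whether the numbers mark a pairing.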
